A study of Mus musculus with 48 samples.

Results

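The set described here held 69 cDNA clones whose signal was at least 2-fold higher in HD than in LD murine erythroleukemia cells after 36 h of trichostatin A (TSA), out of 22171 clones listed on the arrays and 18494 with a value in all 12 conditions. Murine erythroleukemia (MEL) cells are red cell precursors arrested by transformation. HD cells are a clone of the line T-3-Cl-2-0.fl that differentiates readily on induction, and LD cells are a clone of the same line that does so poorly. Both were grown for 6, 12, 24 or 36 h in 15 nM TSA, in 3.0 mM HMBA (hexamethylene bisacetamide) or in 1.0% DMSO (dimethyl sulfoxide), and HD and LD RNA of the same drug and time were hybridised together on 4 technical 2-colour arrays per condition. Every HD sample thus came from 1 clone of cells and every LD sample from 1 other, and no untreated cells were analysed here. The labels tell of no more than 1 pair of RNA extracts per condition. They do not say whether the arrays of a condition used separate extracts.

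Inducers of MEL cells lead the cells to stop dividing, to assemble haemoglobin and to condense their nuclei, as normal red cell precursors do. TSA inhibits histone deacetylases, the enzymes that remove acetyl groups from histones, so that acetylated histones accumulate and many genes change their activity. DMSO and HMBA are polar inducers of another chemical kind that lead to the same maturation.

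The sources used here pair no clone name with a gene, so the clones are given by name only, no role is assigned to any of them, and the labelled cell type could not be checked against marker genes. A clone name gives a library series, a plate and a well: H4056F06 is well F06 of plate H4056. In RNA of whole cultures, a larger share of cells with a transcript and more transcript per cell cannot be told apart.

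All ratios are log2(HD/LD), normalized within each array, so that 1 is a 2-fold excess in HD cells. Arrays 1 and 2 were averaged, arrays 3 and 4, whose channels the labels list in the other order, were averaged, and the value of a condition is the mean of both averages. HD over LD was taken as the direction on every array because the labels name HD cells as the target, and this was not tested. The labels name HD cells as the target and give them Cy3 on every array, while the design text speaks of dye swaps. The raw ratios of arrays 1 and 2 correlated with those of arrays 3 and 4 at r between -0.86 and -0.32 across clones, and after normalization at r between -0.67 and 0.04. The main ratio results at 12 and 24 h are therefore also given with the sign of arrays 3 and 4 turned. The arrays listed between 19237 and 20581 clones each, and precision is limited by how few arrays there were.

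The set was chosen on the readout. A clone entered with a value of at least 1 under TSA at 36 h, above 0 on each of the 4 arrays of that condition, and with a mean change from 6 to 36 h over the 3 drugs below 0.6. The values under TSA at 36 h, and those at 6 and 36 h under every drug, are therefore a description without a test. Of 128 clones that met the 2-fold and sign limits (0.692% of the tested clones), 59 exceeded the limit on the change and stayed out. H4041B08 was just inside the 2-fold limit with a ratio of 1.0004, and H3026E05 was just outside it with 0.9988. At the limit on the change, H3024D02 was inside with 0.591 and H4062D10 outside with 0.60004.

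Under TSA at 36 h the members lay close above the limit, with a median ratio of 1.10 and a range from 1.00 to 1.54. The value was under 1.2 for 52 of the 69 and at least 1.4 for 5. The excess was unequal on the array pairs: arrays 1 and 2 gave a median of 1.61, arrays 3 and 4 one of 0.61, and the first pair gave the higher ratio for 68 of the 69 clones. The ratio was at least 1 on both pairs for 5 clones. The lowest of the 4 arrays had a median of 0.30 over the clones. With arrays 3 and 4 turned, the median of the same clones was 0.52, and the same rule then found 11 clones. None of the 69 could be among these, because the rule had required values above 0 on all 4 arrays.

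**Figure D1:**
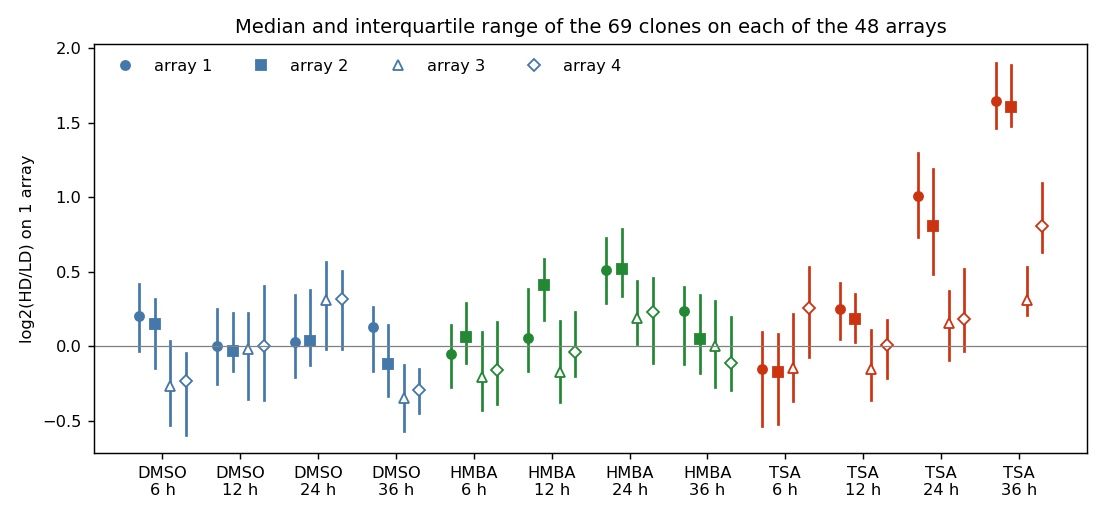
Median (symbol) and interquartile range (bar) of log2(HD/LD) of the 69 clones on each of the 48 arrays, with arrays 1 and 2 filled and arrays 3 and 4 open. Under TSA at 36 h the medians were 1.65 and 1.60 on arrays 1 and 2 and 0.31 and 0.81 on arrays 3 and 4, the same order of the pairs as at 24 h.

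A few clones show the range of behaviour. H3144G06 had the highest ratio, with 1.67, 1.57, 1.60 and 1.31 on arrays 1 to 4 under TSA at 36 h. All 4 arrays were thus well above 1, and no other member had a lowest array as high. H3009G10, next in rank, had 2.25, 2.34, 0.82 and 0.48. H4063E05 had 2.39, 2.28, 0.41 and 0.18. In both of these the arrays of the pairs did not overlap, and arrays 1 and 2 carried most of the excess, which was the common case. H4004E11 had 1.83, 1.60, 0.43 and 1.35, with only array 3 apart from the rest. H4043E07 had 1.31, 1.45, 1.02 and 1.27. H3023H12 had 1.09, 1.17, 1.05 and 0.97. These last clones and H3144G06 were the 3 whose lowest array was highest, at 1.02, 0.97 and 1.31.

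**Figure D2:**
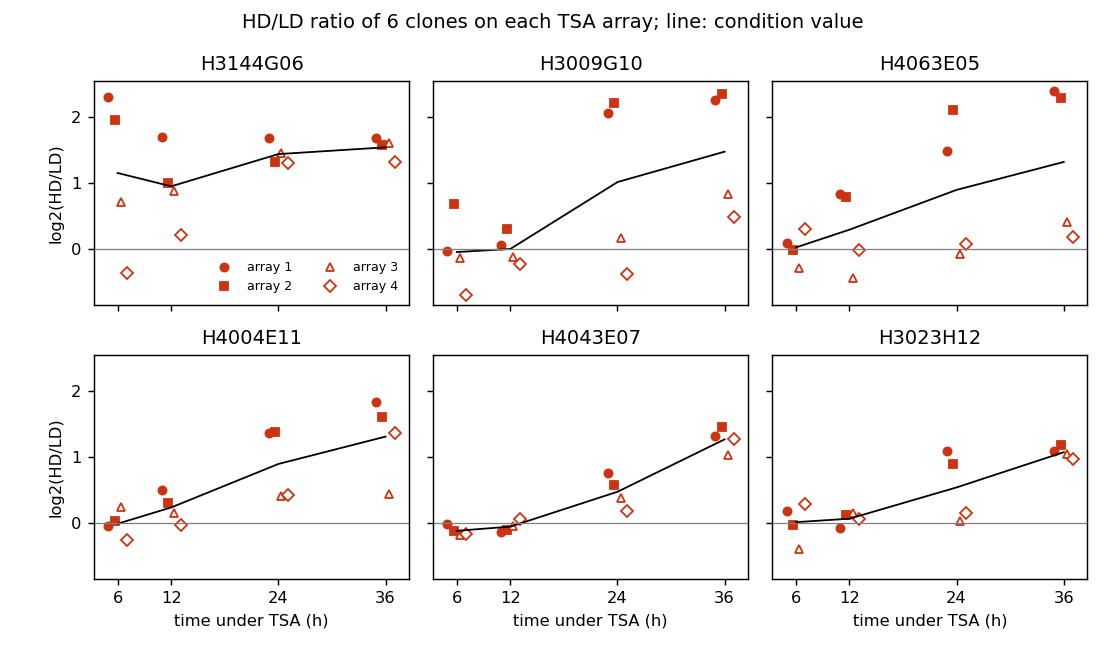
Log2(HD/LD) of 6 clones on each TSA array against time, with the condition value as a line. H3144G06 was high at every time, with 1.15 at 6 h and 1.54 at 36 h, whereas H3009G10 went from -0.05 to 1.47 with arrays 1 and 2 far above arrays 3 and 4 at 24 and 36 h, and H3023H12 had all 4 arrays between 0.97 and 1.17 at 36 h.

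The conditions at 12 and 24 h were not used to choose the clones beyond having a value there. At 24 h the same clones already leaned towards HD cells, most under TSA. The median ratio under TSA was 0.56 at 24 h, against 0.07 at 12 h, while the median of all tested clones was -0.0003 and -0.02. All 69 clones were above 0 under TSA at 24 h, where 49.9% of all tested clones were. The ratio was at least 0.5 for 43 of them, against 1.73% of all tested clones, and above 0 on all 4 arrays for 30, against 8.01%. TSA at 24 h was the highest of the other 11 conditions for 48 of the 69 clones, against 8.61% of all tested clones, and HMBA at 24 h was for 16, against 8.07%. The lead over 12 h came unequally from the pairs, with medians at 24 h of 0.90 on arrays 1 and 2 and 0.16 on arrays 3 and 4. On arrays 3 and 4 the median at 12 h was -0.06. With arrays 3 and 4 turned the median was 0.33 at 24 h and 0.17 at 12 h, and 60 of the 69 clones were above 0 at 24 h, against 48.9% of all tested clones.

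The median excess was smaller under HMBA at the same time. Its median ratio was 0.34 at 24 h and 0.07 at 12 h. Turning arrays 3 and 4 gave 0.15 at 24 h and 0.17 at 12 h, so that 24 h no longer led. At 24 h 66 of the 69 clones were above 0, against 46.5% of all tested clones, and 33 were above 0 on all 4 arrays, against 11.3%. For 19 of the 69 the ratio at 24 h was higher under HMBA than under TSA, against 48.8% of all tested clones. H4043E07 was one, with 0.53, 0.79, 0.76 and 0.81 on the arrays under HMBA against 0.75, 0.57, 0.38 and 0.18 under TSA. Its HMBA arrays agreed more closely than its TSA arrays.

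Of the 3 drugs, DMSO had the lowest median at 24 h. The median was 0.16, against -0.03 at 12 h, and 55 of the 69 clones were above 0, where 51.9% of all tested clones were. Above 0 on all 4 arrays were 12 clones, against 12.1% of all tested clones, which is a share of the set near the background. The sign and the order of the times reversed when arrays 3 and 4 were turned, with medians of -0.10 at 24 h and 0.03 at 12 h. Here arrays 3 and 4 had the higher medians, 0.31 and 0.32, and arrays 1 and 2 had 0.03 and 0.04. At 12 h 30 clones were above 0 under DMSO (48.4% of all tested clones), 51 under HMBA (48.3%) and 46 under TSA (46.9%).

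**Figure D3:**
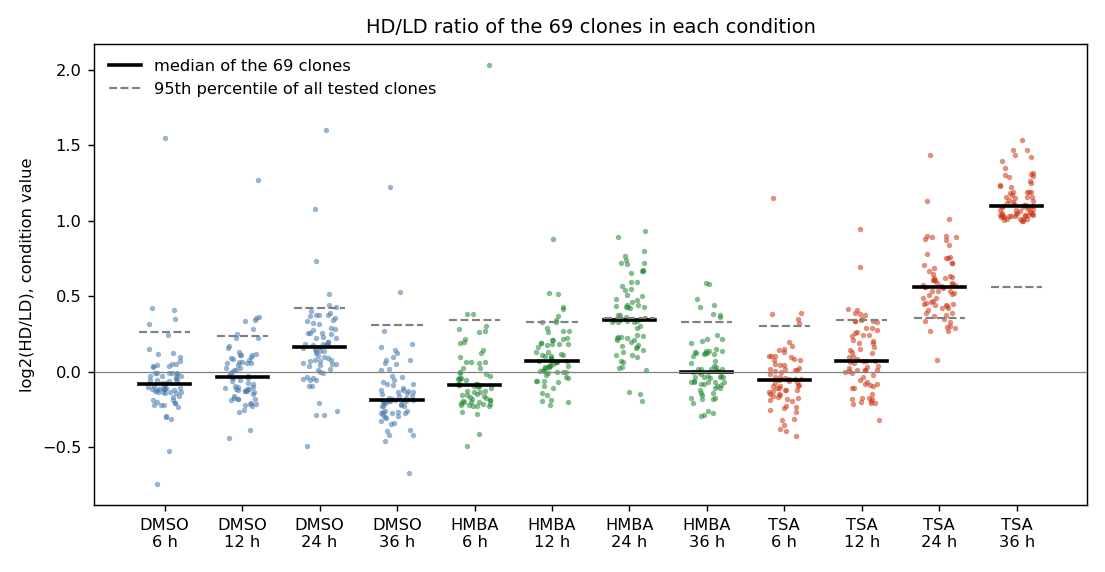
Log2(HD/LD) of each of the 69 clones in the 12 conditions (points), with their median (black) and the 95th percentile of all tested clones (dashed). The median passed that percentile under TSA at 24 h (0.56 against 0.36) besides TSA at 36 h, where the clones were chosen, and the point far above the others under DMSO and under HMBA at 6 h is H3144G06.

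The 6 conditions at 12 and 24 h were then tested for all 18494 clones in limma with drug and time as additive terms. The mean ratio over these conditions was called higher in HD cells for 21 of the 69 clones (adjusted p under the threshold of 0.05) and lower for 0. The background was 407 clones called higher, or 2.20%. Estimates were above 0 for all 69, with a median of 0.19 and a range from 0.02 to 1.10, against a median of -0.01 over all tested clones. An unadjusted p under the threshold was reached by 41 of the 69, all higher, against 7.94% of the tested clones. These p-values rest on the spread between conditions of 1 pair of cell clones that the terms for drug and time left over. The residual variances, on 2 degrees of freedom per clone, spread no more than sampling gives by limma's estimate, so every clone received the same pooled standard error of 0.08. The median residual SD was 0.19 in the dimmest of 4 brightness classes and 0.15 in the brightest. Limits and p-values of single clones therefore rest on the pooled variance and not on their own.

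Fewer clones were called when a condition was left out, in the set and over all tested clones. The 21 became 2 and 1 without DMSO at 12 or 24 h, 4 and 5 without HMBA, and 15 and 7 without TSA. The median estimate lay between 0.13 and 0.25. Over all tested clones the calls, higher or lower, fell from 590 to 58 and 40, 80 and 107, and 215 and 320. A fit of 5 conditions has 1 residual degree of freedom, so fewer calls follow in part from its construction. The 21 became 7, 12, 11 and 11 without array 1, 2, 3 or 4 of every condition. They became 4 without the terms for drug and time and 1 with median centring in place of loess. Over all tested clones the 590 calls became 169, 422, 327 and 385 without 1 array, 278 without these terms and 35 with median centring. With arrays 3 and 4 turned 19 clones were called higher and 2 lower, against 12.4% and 17.4% of all tested clones, and 4 of the clones were called higher both ways. The other 17 of the 21 thus lost the call towards HD cells, and 4 of the 21 had an estimate below 0. H4062E04 was among these, with 0.26 in the main direction (limma adjusted p = 0.049) and -0.46 when turned (limma adjusted p = 0.0030). Arrays 1 and 2 alone called 35 higher and 0 lower, against 8.88% and 12.4% of all tested clones, and arrays 3 and 4 alone called 14 higher and 6 lower, against 14.5% and 10.7%.

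H3144G06 had the largest estimate of the 69, 1.10, with 95% confidence limits of 0.94 and 1.26 (limma adjusted p = 1.7e-36). Turned, it was 0.24 (limma adjusted p = 0.059). It was 0.63 with an offset of 50 added to the intensities and was not called with median centring (limma adjusted p = 0.31). Its ratio was 0.95 and 1.43 under TSA at 12 and 24 h, 1.27 and 1.60 under DMSO, and 0.88 and 0.48 under HMBA, so it was above 0 in each of the 6 conditions. It was also high at 6 h, with 1.55 under DMSO, 2.03 under HMBA and 1.15 under TSA. It was above 0 on 40 of the 42 arrays that listed it, and was among the 3 dimmest members with a mean log2 intensity of 6.12. A clone that is high throughout, it was the only one of the 69 whose mean change from 6 to 36 h was below 0, at -0.59.

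H4034F12 was second, with 0.64 and limits of 0.48 and 0.80 (limma adjusted p = 8.1e-12), and turned it had 0.07 (limma adjusted p = 0.57). Its ratio was 1.08 under DMSO at 24 h and 0.72 under HMBA, above the 0.49 under TSA at the same time. On the TSA arrays at 24 h it had 0.41, -0.14, 0.57 and 1.11, a spread across 0. H3130A05 had 0.47 with limits of 0.31 and 0.63 (limma adjusted p = 4.3e-06), against 0.07 when turned (limma adjusted p = 0.49), and its 4 arrays under HMBA at 24 h had 0.53, 0.93, 0.98 and 1.15. As in H4034F12, the ratio at 24 h was higher under HMBA, with 0.90, than under TSA, with 0.56.

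H4004E11 followed the common course more closely. Its estimate was 0.45 with limits of 0.29 and 0.61 (limma adjusted p = 1.5e-05), against 0.04 when turned (limma adjusted p = 0.69), and its ratio under TSA was -0.01, 0.23, 0.89 and 1.31 at 6, 12, 24 and 36 h. Under HMBA it was 0.27, 0.19, 0.60 and 0.48, and under DMSO 0.15, 0.28, 0.52 and -0.12. Its ratio was thus highest at 24 h under DMSO and HMBA and at 36 h under TSA. The 21 called clones had a median estimate of 0.32, and 9 of them were above 0 in all 6 conditions.

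The change from 12 to 24 h had one direction in most members but passed the test in none. The ratio was higher at 24 than at 12 h for 65 of the 69 clones under TSA, 60 under HMBA and 57 under DMSO, where 50.3%, 48.7% and 53.6% of all tested clones were. It was higher under all 3 drugs for 48 of the 69, against 12.5% of all tested clones. The median change was 0.52 under TSA, 0.26 under HMBA and 0.18 under DMSO. Turned, 47, 33 and 22 of the 69 were higher at 24 h under TSA, HMBA and DMSO, against 53.9%, 47.8% and 48.9% of all tested clones. The share was then near the background under HMBA and below it under DMSO. The turned median changes were 0.27, -0.02 and -0.11. In limma 0 of the 69 were called over the 3 drugs, against 0.027% of all tested clones called higher, and 33 had an unadjusted p under the threshold, all towards HD cells, against 3.38%. H4070H08 had the largest estimate, 0.65 with limits of 0.33 and 0.98 (limma adjusted p = 0.11). With arrays 3 and 4 turned the median change over the members fell from 0.32 to 0.04, and 0 were called.

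Nor was the difference between drugs called. The ratio under TSA minus the mean of DMSO and HMBA at 12 and 24 h was above 0 for 54 of the 69 clones, where 52.6% of all tested clones were, with a median of 0.19. In limma 0 of the 69 were called, against 0.00541% of all tested clones called higher, and 14 had an unadjusted p under the threshold, all higher under TSA, against 2.74%. The median half-width of the 95% interval was 0.34. H3142G10 had the largest estimate, 0.57 with limits of 0.23 and 0.91 (limma adjusted p = 0.24). The median was 0.08 without TSA at 24 h and 0.34 without TSA at 12 h. Arrays 1 and 2 alone gave 0.38, and arrays 3 and 4 alone gave -0.02.

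A ratio is higher where the HD signal is higher or the LD signal lower, so each line was also read alone. Values here are log2 intensities after quantile normalization between arrays. Under TSA the median over the 69 clones in HD cells was 7.55, 8.30, 8.67 and 9.52 at 6, 12, 24 and 36 h. In LD cells it was 7.69, 8.35, 8.05 and 8.27. At 24 h the level was above that at 12 h in HD cells and below it in LD cells for 43 of the 69 clones, against 11.9% of all tested clones. The array pairs did not share this course. On arrays 1 and 2 the median change was -0.04 in HD and -0.86 in LD cells, and on arrays 3 and 4 it was 0.64 and 0.41. From 24 to 36 h the level rose in HD cells for all 69 and in LD cells for 59. The median changes were 0.97 and 0.42, against 0.02 and 0.004 over all tested clones. The clones were chosen on values at 36 h, so these counts and changes are a description.

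Against 6 h, the TSA level at 36 h was at least 2-fold higher in HD cells for 62 of the 69 clones, where 7.22% of all tested clones were, and in LD cells for 17, against 3.26%. The larger count in HD cells follows from the choice of the clones. In LD cells 60 of the 69 clones were nonetheless higher at 36 than at 6 h, against 51% of all tested clones. The median change of the 69 was 0.56. The pairs were opposed here. LD levels were higher at 36 h for 18 of the 69 on arrays 1 and 2 (median change -0.50), against 50.4% of all tested clones. On arrays 3 and 4 they were higher for 69 (median change 1.54), against 53%. H3009G10 went from 8.42 to 10.58 in HD and from 8.47 to 9.11 in LD cells. H3144G06 went from 7.22 to 8.52 in HD and from 6.07 to 6.98 in LD cells, so its level was higher at 36 h in both lines.

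Under DMSO both lines moved alike. From 6 to 36 h the median level went from 7.57 to 8.78 in HD and from 7.63 to 9.07 in LD cells. Both lines were higher for 68 of the 69 clones, where 39.8% of all tested clones were, and at least 2-fold higher in both for 36, against 2.29%. The median level on single arrays was between 7.53 and 8.02 at 6 h and between 8.66 and 9.06 at 36 h, so that the arrays of these conditions did not overlap. Under HMBA the median changed little between 6 and 36 h, from 8.22 to 8.21 in HD and from 8.17 to 8.24 in LD cells. The median of all tested clones in HD cells lay between 9.01 and 9.19 in every condition.

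**Figure D4:**
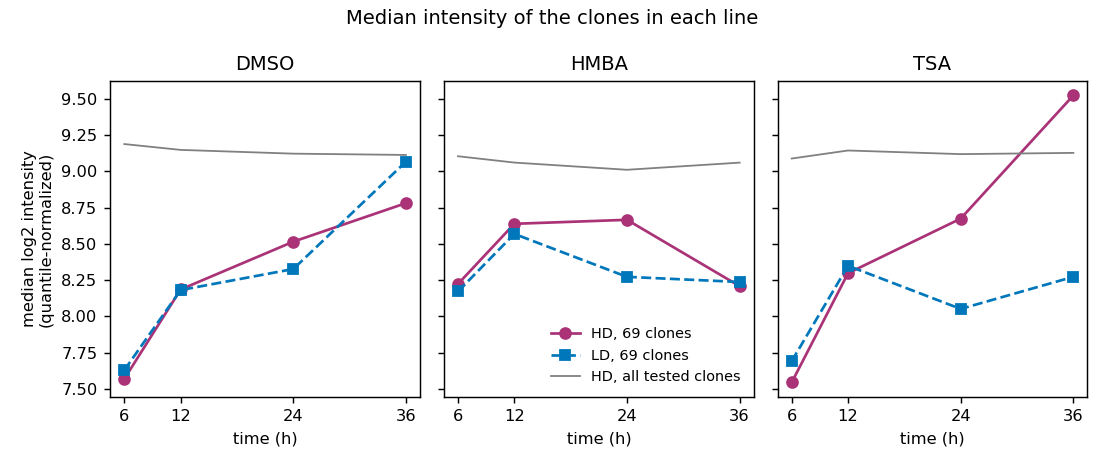
Median log2 intensity of the 69 clones in HD cells (circles) and LD cells (squares) at each time under each drug, with all tested clones in HD cells in grey. The lines part under TSA at 24 and 36 h, where HD cells had 8.67 and 9.52 and LD cells 8.05 and 8.27, while under DMSO at 36 h both lines stood above their level at 6 h, at 8.78 and 9.07.

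Within lines, the change from 12 to 24 h over the 3 drugs was called higher in HD cells for 5 of the 69 clones, against 1.03% of all tested clones, and lower for 0, against 6.49%. In LD cells 1 was called higher, against 0.519%, and 2 lower, against 5.85%. H3027E09 was called in both lines, with 0.93 ± 0.23 (SE) in HD cells (limma adjusted p = 0.012) and 0.74 ± 0.23 in LD cells (adjusted p = 0.043). H3023H12 had 0.91 ± 0.23 in HD cells (adjusted p = 0.013) and H4043E07 0.90 ± 0.23 (adjusted p = 0.013). H3012B10, H3027E09 and H3023H12 were the 3 brightest members, with mean log2 intensities of 11.53, 11.44 and 10.80. The LD calls towards lower levels were H4073B12, with -0.75 (adjusted p = 0.034), and H4067D02, with -0.71 (adjusted p = 0.047). The counts became 0 in both lines with loess within arrays alone, with arrays 3 and 4 turned, and without DMSO or HMBA at 12 or 24 h. With the replicate number as a block they became 6 in HD cells, all higher, and 1 in LD cells, higher.

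The array pairs differed in the level of these clones as well as in their ratio, in the conditions where the ratio was highest. The labels do not say whether both pairs measured the same extracts. Under TSA at 36 h the 69 clones had a median level of 8.05 and 8.29 on arrays 1 and 2, whereas arrays 3 and 4 gave 9.86 and 9.51. The difference of the pairs had a median of 1.23 over the 69 clones and was above 0 for all 69, against a median of 0.0093 over all tested clones. Among tested clones of array part 2, which held 56 of the 69, the median was 0.42. Among those with H4 names, borne by 50 of the 69, it was 0.45. The difference exceeded the 95th percentile of all tested clones, 1.11, for 40 of the 69. Under TSA at 24 h the median difference was 0.84, against 0.05 over all tested clones, 0.14 in part 2 and 0.25 for H4 names. There 44 of the 69 exceeded the 95th percentile of 0.72.

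In the other 10 conditions the median difference of the pairs over the 69 clones lay between -0.56 and 0.23. By line, LD cells under TSA at 36 h had a median of 7.34 on arrays 1 and 2 and 9.37 on arrays 3 and 4. HD cells had 9.04 and 9.97. On both pairs HD was above LD, but the LD level differed more between the pairs than HD differed from LD on either. The part of this difference between pairs in the ratio was not tested.

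**Figure D5:**
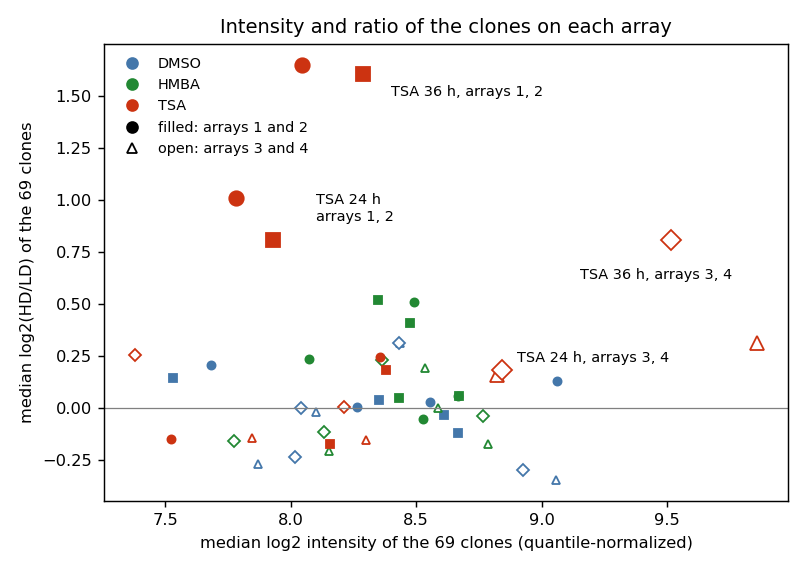
Median log2 intensity of the 69 clones against their median log2(HD/LD) on each of the 48 arrays, arrays 1 and 2 filled and arrays 3 and 4 open. The large symbols are TSA at 24 and 36 h, where arrays 1 and 2 lie to the left with ratios from 0.81 to 1.65 and arrays 3 and 4 to the right with ratios from 0.16 to 0.81.

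Position and brightness were not part of the rule. Array part 2 held 56 of the 69 clones, against 45.0% of the tested clones, and names of the H4 series were borne by 50, against 26.6%. The parts had been normalized separately. Under TSA at 24 h the median ratio was 0.63 for the 13 clones of part 1 and 0.56 for the 56 of part 2, and under HMBA at 24 h it was 0.34 in both. The mean ratio at 12 and 24 h was called higher for 4 of 13 in part 1 and 17 of 56 in part 2, against 2.06% and 2.37% of the tested clones of each part.

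The clones came from 43 of 238 plates, with 1 member on 26 of them. Plate H4056 held the most, 6 of its 84 tested clones, and its other clones had a median ratio of 0.23 under TSA at 36 h. The 3475 other tested clones on the 43 plates had a median of 0.10. One pair of members sat in adjoining wells, H3024D01 and H3024D02. H3024D01 had 1.53, 1.48, 0.47 and 0.58 on the arrays under TSA at 36 h, and H3024D02 had 1.63, 1.59, 0.53 and 0.69. At 24 h they had 1.23, 1.30, -0.34 and -0.35, and 1.67, 1.77, -0.35 and -0.06. In both clones arrays 1 and 2 were above arrays 3 and 4 at both times.

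Most members were of middling brightness, with a median log2 intensity of 8.29 against 9.09 for all tested clones. When the tested clones were ranked by brightness and cut into 4 equal classes, the classes held 16, 31, 19 and 3 of the 69 from dimmest to brightest. The mean ratio at 12 and 24 h was called higher for 5, 9, 5 and 2 of these, against 1.69%, 2.23%, 1.69% and 3.20% of the tested clones in each class.

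The profiles of most pairs of members correlated positively across conditions. Over the 12 conditions the Pearson r between the ratios of 2 members had a median of 0.84 over 2346 pairs, including TSA at 36 h, on which the clones were chosen. Without TSA at 36 h it was 0.64. Over the 6 conditions at 12 and 24 h it was 0.65, with an interquartile range from 0.41 to 0.81 and a lowest value of -0.79. Pairs of other tested clones were not computed, so these values have no background beside them. The points share arrays and normalization, so these values are a description. For LD levels over the 12 conditions, the median r was 0.47. Against the median profile of the set over the 12 conditions, 64 of the 69 clones had r of at least 0.8, and the lowest was 0.097 for H3144G06. That profile is made from the members and includes TSA at 36 h, so a high r follows in part from the choice of the clones. The clones outside the set with the most similar profile over 12 conditions were H3040H09, H4062A12 and H3056H01, with r of 0.98, 0.98 and 0.97. Their ratios under TSA were 0.36, 0.87 and 0.64 at 36 h and 0.08, 0.48 and 0.27 at 24 h, a profile of like shape at smaller size. H3040H09 and H4062A12 were not above 0 on all 4 TSA arrays at 36 h.

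The 59 clones that met the 2-fold and sign limits but exceeded the limit on the change are set beside the 69 for comparison. Their median ratio under TSA was -0.02, 0.03, 0.74 and 1.67 at 6, 12, 24 and 36 h, against -0.06, 0.07, 0.56 and 1.10 for the 69. Under HMBA at 24 h it was 0.44 against 0.34. At 36 h it was 0.91 under HMBA and 0.39 under DMSO, against -0.005 and -0.18 for the 69, a gap that the limit on the change sets. The difference between these groups was not tested, since the rule divides them by values of the same arrays.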

How the data were processed

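RNA of HD and LD cells was compared on 48 two-colour cDNA arrays, 4 for each of 12 conditions, grouped by the titles in the labels. Each array was deposited as 2 parts with an intensity for control and target RNA, per the file headers. Scanner, background correction and choice of listed clones are not given in the sources used here. No background was subtracted. The authors' table of log2 ratios correlated with the ratios computed here at r from 0.987 to 0.999 across clones, so that its scale is log2 and its direction target over control. Its column medians lay between -0.04 and 0.0205, how it was normalized is unknown, and it served only as an alternative.

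Within each part, a loess curve (span 0.3) on mean log2 intensity was subtracted from the log2 ratio. Clones with both array pairs in all 12 conditions were tested, 18494 in number. The 69 members had 25 of 3312 array values missing, left out of means. Condition values at 12 and 24 h entered a limma fit (version 3.58.1, R 4.3.3) with additive drug and time terms, which leaves 2 residual degrees of freedom, and variances were moderated by empirical Bayes. P-values are two-sided and adjusted by Benjamini-Hochberg over all tested clones, with a threshold of 0.05. Within-line intensities were fitted with condition as a random block, with a correlation of 0.74. Technical arrays were averaged first, and conditions were the units. The fits were also run on simulated condition values with 1 common SD of noise. Those values held no differences between array pairs, so that run cannot vouch for the calls made here.

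Deviations from the condition mean correlated across clones between same-numbered arrays, at r of 0.22 to 0.64, while the differences of array 1 from 2 and of 3 from 4 had median r of 0.0072 and 0.0035. The numbers, from the titles, thus pair arrays by orientation.

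The members, lists and tests were chosen with earlier results of these data known. Clones were named by rule: the 10 highest under TSA at 36 h, up to 10 called at 12 and 24 h, up to 5 called in each other test, those nearest the limits, the brightest, dimmest and most even, and the 3 most similar outside the set. The uncalled clones with the largest estimates in 2 tests were named after their values were seen. No sequence was printed, because no source used here ties a clone to one.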

Additional observations from a re-analysis of the deposited data

How the results depend on the processing

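The following counts are of the 69 clones, with the main value before each range or alternative. The settings with 1 array pair alone and with a variance trend on intensity were chosen after seeing the data. The trend left the 21 calls of the mean ratio at 12 and 24 h at 21, and the replicate block, a fit of all 24 arrays at 12 and 24 h with the replicate number as a block, gave 19. In that fit H4030G12 lost its call (limma adjusted p = 0.19), while the other 9 of the 10 called clones with the largest estimates kept theirs, and the tests of 24 h against 12 h and of TSA against the other drugs stayed at 0 of the 69. Within lines the replicate block, added after seeing the data, gave 6 in HD cells and 1 in LD cells. The 21 became 1 with median centring, 4 without covariates, 2 and 1 without DMSO at 12 or 24 h, 4 and 5 without HMBA at 12 or 24 h, 7 without TSA at 24 h and 35 on arrays 1 and 2 alone, while arrays 3 and 4 alone gave 20, of which 6 were lower, with 7 to 12 when 1 array number was left out. A fit of 5 conditions has 1 residual degree of freedom, so fewer calls follow in part from its construction. For the change from 12 to 24 h the 0 calls became 0 to 1 with 1 array number left out. For TSA against the other drugs the 0 became 2 and 1 on either array pair alone. The 5 calls within HD cells became 8 with the offset of 50, 1 on arrays 3 and 4 alone, 1 to 4 with 1 array number left out, and 0 with arrays 3 and 4 turned, with loess alone, on arrays 1 and 2 alone and without DMSO or HMBA at 12 or 24 h. The 3 within LD cells became 5 without TSA at 12 or 24 h, 0 to 1 with 1 array number left out, and 0 with arrays 3 and 4 turned, with loess alone, on either pair alone and without DMSO or HMBA at 12 or 24 h. Fits of the lines on 5 conditions used the correlation of the full fit. The set itself held 11 clones with arrays 3 and 4 turned, 43 with the offset, 486 on arrays 1 and 2 alone and 145 on arrays 3 and 4 alone, and between 42 and 143 without 1 array number, with 143 without array 3 and 42 without array 4. With arrays 3 and 4 turned the mean ratio of 17 of the 69 clones was below 0, among them H4062E10 at -0.12. The cause of these changes was not tested. The median ratio under TSA at 24 h ranged from 0.16 to 0.90 over its alternatives, those of either array pair alone, against an SD of 0.43 over the medians of the 4 arrays. No background values were at hand, so how far signal over background limits the dim clones is unknown.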
